A study of Homo sapiens with 10 samples.

Results

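The WDR5 binding positions called in wild-type (WT) HEK293T cells were compared with those called in HEK293T cells that lack the microprotein EMBOW (EMBOW knockout, KO). HEK293T is a transformed human embryonic kidney cell line. Chromatin was taken from nuclei digested with micrococcal nuclease, an enzyme that cuts the DNA between nucleosomes, and was precipitated with the same anti-WDR5 antibody in both genotypes. Neither genotype received a further treatment, per the labels, and how the knockout was made or whether it is 1 clone is not stated in the labels. Each genotype was 1 library, so these are 2 of the 10 samples of the series, and no difference below has a replicate check. The authors deposited a list of peak summits per library, each 1 base with a −log10 q from the peak caller. All summits on chromosomes 1 to 22 and X were taken, which left 17655 of 17660 in WT and 21053 of 21055 in KO, or 38708 in all. The summits left out lay on chromosome Y, 5 in WT and 2 in KO. The lists do not measure EMBOW, so they do not check the knockout.

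WDR5 is a WD40-repeat protein that holds together the COMPASS complexes, which methylate lysine 4 of histone H3 at active promoters. It is also found in other chromatin complexes, such as the NSL acetyltransferase complex, and it binds the transcription factor MYC. In dividing cells it has been found at the mitotic spindle, where it interacts with the kinesin KIF2A. EMBOW is a small protein that binds WDR5, and the series asked how it divides WDR5 between chromatin and its mitotic role.

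The sequence in front of a gene differed with the WDR5 call, and 4 promoters show the range. RPL35 encodes a protein of the large ribosomal subunit and carried the highest-ranked WDR5 summits shared by both genotypes. ECSIT, an assembly factor of mitochondrial complex I, had the highest-ranked gene-end summit of KO with no WT summit within 5 kb. SNX15, a sorting nexin of endosomal transport, had the highest-ranked WT summit with no KO summit within 5 kb among gene ends with a start in the sequence table; SCUBE3, ranked higher, was not matched to a start there. ALB encodes serum albumin, a liver product, and was the first gene of a list of genes silent in kidney lines to have no summit in either genotype. Each line is the 250 bases just before the RefSeq start (GRCh38.p14), printed 5′ to 3′ on the gene's strand with every CG dinucleotide in capitals. They cover chr9:124861958-124862207 on the minus strand for RPL35, chr19:11529135-11529384 on the minus strand for ECSIT, chr11:65027189-65027438 on the plus strand for SNX15 and chr4:73404037-73404286 on the plus strand for ALB.
RPL35: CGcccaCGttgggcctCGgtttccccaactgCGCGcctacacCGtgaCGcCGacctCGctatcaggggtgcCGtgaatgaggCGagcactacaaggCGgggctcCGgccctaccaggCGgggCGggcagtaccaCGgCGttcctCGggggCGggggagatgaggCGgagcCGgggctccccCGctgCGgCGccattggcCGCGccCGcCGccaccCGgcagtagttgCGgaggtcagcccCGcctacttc
ECSIT: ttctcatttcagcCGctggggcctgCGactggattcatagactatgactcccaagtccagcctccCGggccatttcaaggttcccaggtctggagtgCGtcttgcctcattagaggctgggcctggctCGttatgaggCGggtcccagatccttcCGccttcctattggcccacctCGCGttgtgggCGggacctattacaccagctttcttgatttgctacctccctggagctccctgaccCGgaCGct
SNX15: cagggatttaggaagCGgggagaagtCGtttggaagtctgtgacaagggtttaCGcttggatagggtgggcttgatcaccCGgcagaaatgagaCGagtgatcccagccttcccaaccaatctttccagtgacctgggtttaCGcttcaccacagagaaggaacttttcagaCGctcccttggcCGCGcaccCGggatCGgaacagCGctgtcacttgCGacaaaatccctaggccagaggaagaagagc
ALB: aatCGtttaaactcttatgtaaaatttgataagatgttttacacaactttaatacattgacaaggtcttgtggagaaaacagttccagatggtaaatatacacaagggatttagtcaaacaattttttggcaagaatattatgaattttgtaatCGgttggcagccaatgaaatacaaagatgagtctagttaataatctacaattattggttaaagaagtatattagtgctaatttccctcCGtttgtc
These stretches held 31 CG dinucleotides in RPL35, 12 in ECSIT, 13 in SNX15 and 3 in ALB. Their GC contents were 73.2%, 58.8%, 54.8% and 30.0%.

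The promoters marked in both genotypes and in neither were also at the extremes over 22131 RefSeq starts of 15811 protein-coding genes, in windows from 250 bases before to 50 after the start. Starts on chromosome 8 were not used here, so its summits are left out wherever distance from a start is used below, and several starts of a gene can share sequence. The 10256 starts with a summit of both genotypes within 1 kb had a median of 29 CG dinucleotides and a GC content of 68.0%. The 1532 starts marked in KO alone had 24 and 64.0%, and the 803 marked in WT alone 22 and 63.7%. The 9540 starts marked in neither had 6 and 53.7%. In both of these medians, starts marked in a single genotype lay nearer to those marked in both than to unmarked ones, whichever genotype it was. CCGGAAG, the core of sites for ETS-family factors, was found on either strand in 20.1% (95% interval 19.3 to 20.9%) of starts marked in both, 15.3% (13.6 to 17.2%) in KO alone, 10.6% (8.54 to 12.9%) in WT alone and 4.74% (4.32 to 5.18%) in neither, against 12.8% of all starts. Of 5 motifs searched, it was the only one for which the KO-alone and WT-alone intervals did not overlap. Among starts whose best summit ranked in the lower 50% of its list, the KO-alone share was 13.9% (11.8 to 16.3%) and the WT-alone share 10.2% (7.68 to 13.1%), with intervals that did overlap. The GC box GGGCGG was found in 77.4%, 69.5%, 65.8% and 30.6% of the same classes and in 56.3% of all starts. TATAAA, the letters of a TATA box, ran the other way, with 4.23%, 6.20%, 4.86% and 16.0%, and 9.46% of all starts. The E-box CACGTG was found in 11.1%, 6.79%, 9.09% and 5.61%, and CCAAT in 33.8%, 35.9%, 38.0% and 35.0%, against 8.34% and 34.6% of all starts. All motifs were searched on both strands, and a match describes the letters in the window, not a bound factor.

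KO had more WDR5 summits than WT in each kind of place, with the larger ratios away from gene ends. Summits at most 1 kb from an end of a protein-coding gene were called gene end, those between the ends and over 1 kb from any end inside gene, and those outside genes and over 1 kb from them distal. Gene-end summits numbered 10828 in WT and 11755 in KO, a KO to WT ratio of 1.09 (95% interval 1.06 to 1.11). Inside genes there were 4167 and 5567, a ratio of 1.34 (1.28 to 1.39). Distal summits numbered 2660 and 3731, a ratio of 1.40 (1.33 to 1.47). The intervals of the ratios inside genes and at distal positions lay above that at gene ends. Of the 3398 summits by which the KO list was longer, gene ends made up 27.3%, gene interiors 41.2% and distal sequence 31.5%. Gene ends hold 2.39% of the chromosome length, gene interiors 40.2% and distal sequence 57.4%, so gene ends stayed the densest place in both lists. These intervals are exact and cover counting error only, the read depth behind the lists is unknown, and a deeper library can yield a longer list.

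At equal list length the place of the summits was nearly the same in both genotypes. The KO list was cut to its 17655 highest scores, the length of the WT list. It then held 10783 gene-end summits, 4247 inside genes and 2625 distal, and the ratios to WT became 0.996 (0.970 to 1.02), 1.02 (0.976 to 1.06) and 0.987 (0.935 to 1.04). All of these intervals included 1. The 3398 KO summits below that length, with a −log10 q of at most 2.86, were 28.6% gene end, 38.8% inside genes and 32.5% distal. By rank, the KO summits beyond the length of the WT list thus held far fewer gene ends than the rest. When each list was instead held to a q of 1e-05 or less, 10922 WT and 12788 KO summits remained, with ratios of 1.13 (1.09 to 1.16) at gene ends, 1.28 (1.20 to 1.35) inside genes and 1.27 (1.17 to 1.38) at distal positions. At that q the KO list was still the longer one, and the ratio at gene ends still lay below the others.

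**Figure D1:**
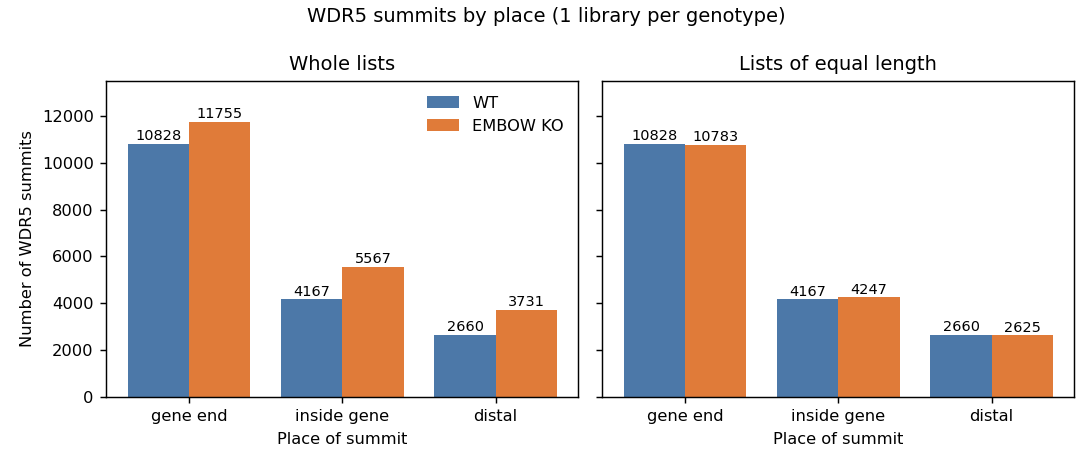
Number of WDR5 summits (vertical axis) at gene ends, inside genes and at distal positions, for WT (blue) and EMBOW KO (orange), 1 library each. With the whole lists (left) KO has more in each place, and with the lists cut to 17655 summits each (right) the bars of the 2 genotypes are nearly level.

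Within genes and outside them, the ratio was smallest close to a start, over the summits off chromosome 8. Inside-gene summits within 1 kb of a listed start, which are starts of alternative transcripts or of genes nested in others, numbered 1390 in WT and 1541 in KO, a ratio of 1.11 (1.03 to 1.19). From 1 to 5 kb there were 1224 and 1819, a ratio of 1.49 (1.38 to 1.60), and beyond 5 kb 1411 and 2026, a ratio of 1.44 (1.34 to 1.54). Distal summits within 1 kb of the start of a long noncoding RNA (lncRNA) numbered 381 and 447, a ratio of 1.17 (1.02 to 1.35), and other distal summits 2220 and 3200, a ratio of 1.44 (1.37 to 1.52). At equal length all 5 ratios lay between 0.990 and 1.06, with intervals that included 1. Distal summits over 100 kb from a protein-coding gene numbered 815 in WT and 733 in KO at equal length, a ratio of 0.899 (0.813 to 0.995), although the whole KO list held 1123 of them. Where the strand was known, gene-end summits lay nearest a 5′ end in 8559 cases in WT and 9226 in KO, and nearest a 3′ end in 307 and 388.

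Around the starts of genes, both genotypes had their summits in the same places. The fullest 50-bp bin lay 150 to 199 bp downstream of the start, with 1388 summits in WT and 1557 in KO. A second, lower rise lay in the bin that begins 300 bp upstream, with 235 and 256. Between them the count fell to 104 in WT and 124 in KO, in the 50 bp before the start. The profile thus had a peak on either side of the start and a low between them in each genotype. Taking all distances, 4302 WT and 4536 KO summits lay 101 to 300 bp downstream, a ratio of 1.05 (1.01 to 1.10), and 1556 and 1728 lay 500 to 101 bp upstream, a ratio of 1.11 (1.04 to 1.19). At equal length these ratios were 1.01 (0.971 to 1.06) and 0.998 (0.930 to 1.07).

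**Figure D2:**
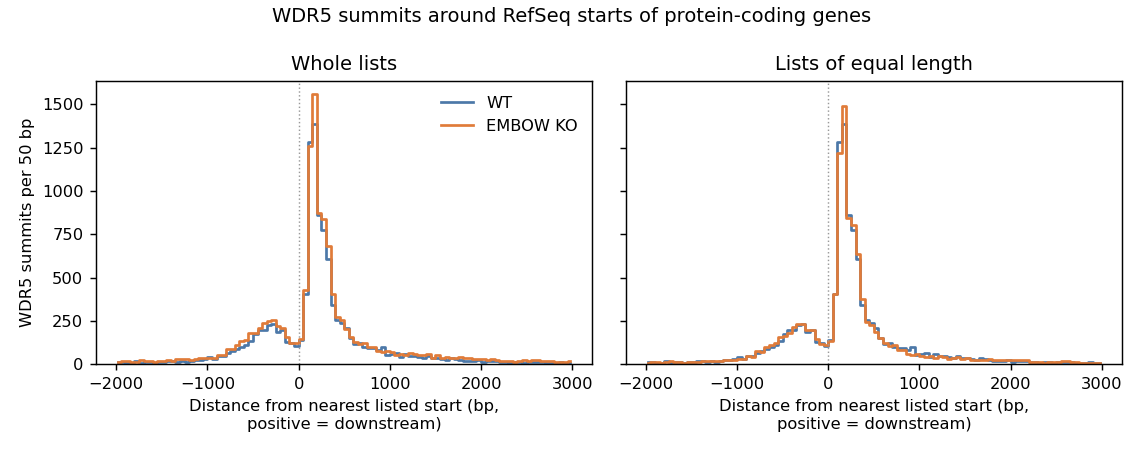
WDR5 summits per 50 bp (vertical axis) by distance from the nearest RefSeq start of a protein-coding gene (horizontal axis, downstream positive) in WT (blue) and EMBOW KO (orange). In both panels each genotype peaks 150 to 199 bp downstream, has a lower rise about 300 bp upstream and a low just before the start.

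Farther from the start, the flank 2001 to 5000 bp downstream held more summits in KO, also at equal length. This flank, singled out after its values were seen among 17 distance bins, had 495 summits in WT and 839 in KO, a ratio of 1.69 (1.51 to 1.90). At equal length it had 495 and 601, a ratio of 1.21 (1.08 to 1.37), and at a q of 1e-05 or less 195 and 317, a ratio of 1.63 (1.36 to 1.95). The mirror flank upstream, with 279 and 452 summits, had a ratio of 1.62 (1.39 to 1.89) and at equal length one of 1.14 (0.971 to 1.35), whose interval included 1. The bin 501 to 1000 bp downstream went the other way at equal length, with 1123 summits in WT and 999 in KO and a ratio of 0.890 (0.816 to 0.970). In all other bins the equal-length interval included 1. Of the 839 KO summits in the downstream flank, 584 had no WT summit within 500 bp, and for 81.7% (78.3 to 84.7%) of these the start itself was marked in WT. Of the 495 WT summits 235 lacked a KO partner, and 84.3% (79.0 to 88.7%) of these had a start marked in KO. The flank summits of either genotype thus mostly lay beside starts that the other genotype also marked. Marked starts were mostly marked in both genotypes in any case, with 10256 in both, 1532 in KO alone and 803 in WT alone over all listed starts. The shares are therefore not a trait of this flank.

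The highest-ranked unpaired flank summits, also named after their values were seen, lay at MAZ in KO and at FOXC1 in WT. MAZ encodes a zinc finger factor that binds GC-rich promoters, and its KO summit on chromosome 16 at 29809629 ranked 1457, lay 3100 bp downstream of the start and 1302 bp from the nearest WT summit. PTGES3, a co-chaperone of HSP90, and HOXD11, a homeobox gene, followed at KO ranks 2677 and 3426. FOXC1 encodes a forkhead factor, and its WT summit on chromosome 6 at 1614307 ranked 276, 4392 bp downstream and 2810 bp from a KO summit. HOXA6, another homeobox gene, and SLIT2, which encodes an axon guidance ligand, followed at WT ranks 424 and 924. The WT examples ranked higher in their list than the KO examples did in theirs, although WT had fewer such summits. They differ in place, since the FOXC1 and HOXA6 summits were gene end and those of SLIT2, MAZ, PTGES3 and HOXD11 inside gene. Gene-end summits scored higher in general, with a median −log10 q of 7.80 against 4.97 inside genes in WT.

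How often a summit recurred in the other genotype depended on place. A summit with one of the other genotype within 500 bp was called shared. Of the 21053 KO summits 8503 (40.4%) had no WT summit that close, and of the 17655 WT summits 5062 (28.7%) had no KO summit. At gene ends 82.0% (81.3 to 82.7%) of WT and 75.1% (74.3 to 75.9%) of KO summits were shared. Inside genes these shares were 57.5% (56.0 to 59.0%) and 43.1% (41.8 to 44.4%), and at distal positions 49.4% (47.5 to 51.4%) and 35.5% (33.9 to 37.0%). Distal summits over 100 kb from a gene were shared least often, with 35.5% in WT and 25.8% in KO. Distal summits within 1 kb of an lncRNA start were shared in 72.7% (67.9 to 77.1%) and 62.6% (58.0 to 67.1%), and inside-gene summits within 1 kb of a listed start in 78.8% and 71.5%. Summits near a start were thus shared more often than others of the same place. Their scores were also higher, with a median −log10 q of 7.37 in WT for inside-gene summits within 1 kb of a start against 4.17 from 1 to 5 kb, and the part of the score in this was not tested.

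At equal length the genotypes were shared to nearly the same degree in each place. The WT and KO shares were 78.8% and 78.3% at gene ends, 53.3% and 51.9% inside genes and 45.0% and 45.8% at distal positions. Lists of the same length that pair nearly 1 to 1 must have almost the same overall share. The totals of each place were also nearly equal, and 98.2% of whole-list pairs had the same place. The shares in each place therefore had to be nearly alike too, and add little of their own. Of the 8503 unshared KO summits, 2699 (31.7%) lay below the length of the WT list, where 20.6% of the 3398 summits had a partner. Unshared summits with no summit of the other genotype within 5 kb numbered 1965 in WT, or 11.1% (10.7 to 11.6%), and 4225 in KO, or 20.1% (19.5 to 20.6%). At equal length they were 2422 (13.7%, 13.2 to 14.2%) and 2720 (15.4%, 14.9 to 15.9%). That difference lay mostly at gene ends, where the equal-length counts were 684 in WT and 931 in KO, against 737 and 814 inside genes and 1001 and 975 at distal positions. Isolated gene-end summits were thus more numerous in KO at the same list length, at 6.32% (5.87 to 6.79%) of WT and 8.63% (8.11 to 9.18%) of KO gene-end summits. Gene-end summits whose nearest partner lay over 500 bp and up to 5 kb away were fewer in KO, at 14.9% (14.2 to 15.5%) and 13.1% (12.4 to 13.7%).

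The highest-ranked isolated summits differed by place. At gene ends these were ECSIT, BBLN and TUT7 (a terminal uridylyltransferase) in KO, at ranks 1324, 1527 and 1530, and SCUBE3, SNX15 and QTMAN in WT, at ranks 968, 2066 and 2425. Inside genes the KO summits were those in ROBO2 (an axon guidance receptor), FBXL16 and TDP1 (a DNA repair phosphodiesterase), at ranks 1931, 2515 and 2847. The ROBO2 summit on chromosome 3 at 77039684 lay 415 bp upstream of an internal start and 1254339 bp from the nearest WT summit. The WT summits were those in WDR25, RGL1 and SDCBP2, at ranks 2309, 4396 and 4961, and the RGL1 summit on chromosome 1 at 183805181 lay 61 bp downstream of an internal start. At distal positions the KO summits stood nearest LOC124903767, NEDD4 (a ubiquitin ligase) and WSB1, at ranks 150, 318 and 1029, and the nearest of these genes to its summit was NEDD4, 26020 bp away. The WT ones stood nearest SPDYE12, PLS3 and MAGEF1, at ranks 2101, 2378 and 2981. The distal KO summits were thus ranked above the other isolated KO summits named, and they lay up to 2219641 bp from a protein-coding gene. The one nearest LOC124903767 lay 601 bp from an lncRNA start. How uniquely reads map at these positions was not examined.

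Sharing fell with rank in all 3 places, and fastest away from gene ends. Each list was divided into 10 groups of equal size by −log10 q. In the highest group, 96.4% (95.2 to 97.3%) of gene-end, 92.1% (88.1 to 95.0%) of inside-gene and 96.1% (91.8 to 98.6%) of distal WT summits were shared, and in KO 96.2%, 92.7% and 94.4%. In the lowest group, the WT shares were 57.6% (53.7 to 61.4%), 29.3% (25.8 to 33.1%) and 22% (18.3 to 26.0%). The KO shares there were 37.5% (33.5 to 41.7%), 13.5% (11.3 to 16.1%) and 9.46% (7.42 to 11.8%). Among the strongest summits a distal position was therefore shared as often as a gene end, within the intervals, and among the weakest much less often. The make-up of the groups changed in the same direction, with gene ends at 76.2% of the highest and 37.4% of the lowest WT group, and at 75.8% and 26.8% in KO. Ties limit these ranks, since 89.6% of WT and 89.9% of KO summits had a score that another summit of the list shared.

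**Figure D3:**
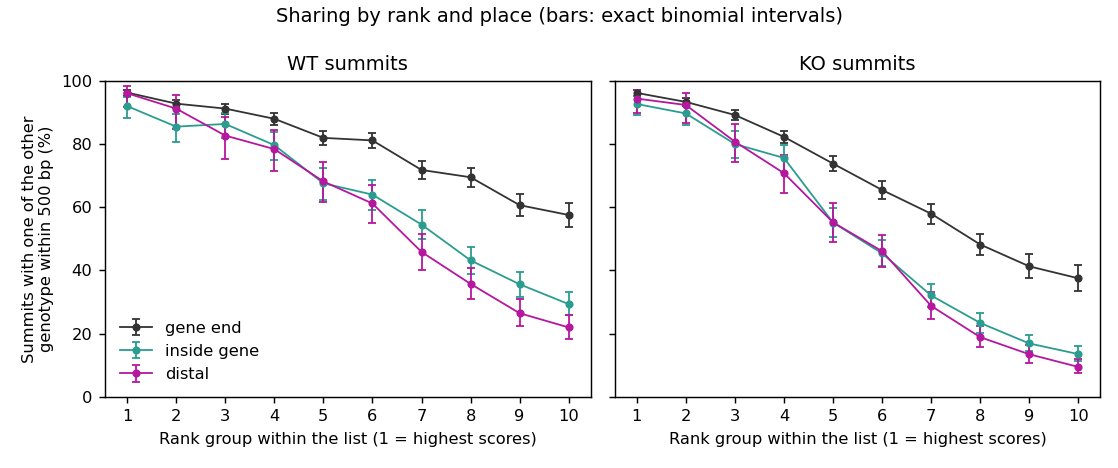
Share of WDR5 summits (vertical axis, percent) with a summit of the other genotype within 500 bp, by rank group in the list (1 holds the highest scores), for gene-end (black), inside-gene (green) and distal (purple) summits of WT (left) and EMBOW KO (right). Bars are exact 95% intervals, and the curves start together above 90% and separate towards the lowest scores, where gene ends stay highest.

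Paired summits lay close together. Taking summits that were each other's nearest within 500 bp gave 12335 pairs with a median distance of 64 bp (quartiles 23 and 155 bp). In 62.5% of pairs the summits lay within 100 bp, less than the length of DNA on a nucleosome, and in 109 pairs they fell on the same base. The KO summit lay at the higher coordinate in 6100 pairs and at the lower in 6126, so there was no common direction along the chromosome. In 98.2% of pairs both summits had the same place. The median distance was 61 bp at gene ends, 81 bp inside genes and 58 bp at distal positions, and 29 bp for the 287 distal pairs over 100 kb from a gene. Pairs were also grouped by the better of their WT and KO ranks. The median distance was then 39 bp in the highest group and 119 bp in group 9. It was 104.5 bp over the 66 pairs of the last group, so pairs with a summit of high rank lay closer. Within the highest group distal pairs lay 19 bp apart at the median, gene-end pairs 39 bp and inside-gene pairs 46 bp.

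**Figure D4:**
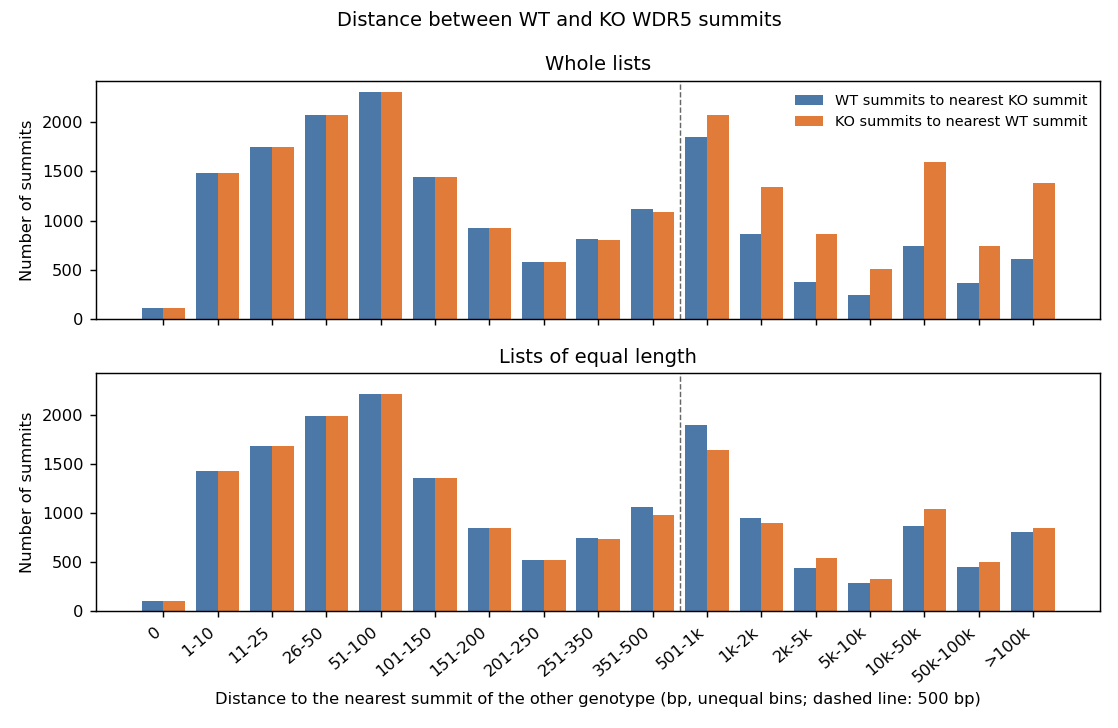
Number of WDR5 summits (vertical axis) by distance to the nearest summit of the other genotype (horizontal axis, bins of unequal width), for WT (blue) and EMBOW KO (orange). Up to 250 bp the bars of the 2 genotypes are level because those summits pair 1 to 1, and beyond 500 bp (dashed line) the KO bars are higher with the whole lists (top), while at equal length (bottom) the WT bars are higher from 500 bp to 2 kb and the KO bars slightly higher beyond 2 kb.

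Along the gene, the offset of a pair depended on where it lay and was alike in both directions of comparison. For pairs with the WT summit 101 to 200 bp downstream of a start, the KO summit lay a median of 17 bp farther downstream, over 2368 pairs. For those with the WT summit 301 to 500 bp downstream it lay 49 bp nearer to the start, over 1220 pairs. When pairs were sorted by the KO summit instead, the WT summit lay 13 bp farther downstream in the first window and 41 bp nearer in the second. The offsets were thus alike whichever genotype the pairs were sorted by, and over all 8079 pairs within 1000 bp of a start the median offset was 1 bp.

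The pairs at the ends of this range had named genes. RPS4X and RPS6, which encode proteins of the small ribosomal subunit, were among the highest-ranked pairs on the same base. Their summits lay at 72277091 on chromosome X and 19380074 on chromosome 9, 157 and 162 bp inside the 5′ end of the gene. The highest-ranked pairs over 250 and up to 500 bp apart were at TASOR (a subunit of the HUSH silencing complex), a distal position near LOC124905450, and CLCN7 (a lysosomal chloride transporter). At TASOR the WT summit lay 241 bp outside the 5′ end and the KO summit 439 bp from the WT summit, at ranks 124 and 139, on the other side of the start. At CLCN7 the WT summit lay 127 bp inside the 5′ end and the KO summit 386 bp from the WT summit, at ranks 329 and 355. Both genes thus had summits of similar rank on opposite flanks of the start.

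The ranks of paired summits were related. Spearman's rho between WT and KO ranks was 0.634 over the 12335 pairs and 0.625 over 11708 pairs at equal length, given as a description, since the pairs share the 2 libraries. Of the 100 highest summits of WT, 96 paired with one of the 100 highest of KO, and of the highest 1000, 584 did. Among the strongest shared summits at gene ends were RPL35 (WT rank 1, KO rank 3) and CCT7 (10 and 1), which encodes a subunit of the cytosolic chaperonin. Inside genes they were in RNF220 (3 and 6), RPL6 (33 and 13) and LOC124904958 (68 and 43). In WT these lay 148 bp downstream of an internal start, 169 bp upstream of a listed start and 135 bp from an lncRNA start. At distal positions the strongest shared summits stood nearest MYO1G (49 and 76), BRSK2 (91 and 61) and LINC02798 (80 and 96). In WT they lay 7471, 7073 and 3717074 bp from these genes. How uniquely reads map at these positions was not examined either. The highest ranks were thus not limited to the ends of protein-coding genes, although the inside-gene examples lay near other starts.

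Single genes differed widely in rank between the lists of equal length. Of 9050 genes with a gene-end summit in both, 1569 (17.3%) had a KO rank at least 2 times better than the WT rank and 1495 (16.5%) the reverse. The largest rises of rank in KO, among pairs with one summit in the top 10%, were at SNRNP200, RAPGEF2, NEK3 and STON2. SNRNP200 encodes a helicase of the spliceosome and stood at rank 16822 in WT (−log10 q 2.05) and 1230 in KO (25.2). RAPGEF2, an exchange factor for the GTPase RAP1, stood at 17188 and 1618. The largest falls were at NCLN, IGDCC3, RICTOR and CFAP97. NCLN, which encodes nicalin, stood at rank 1293 in WT (21.3) and 16967 in KO (3.23), with the summits 21 bp apart. RICTOR, a subunit of the mTORC2 kinase complex, stood at 1187 and 15047, with the summits 452 bp apart. At SNRNP200 and IGDCC3 the summits lay 368 and 298 bp apart, and at the other named genes at most 54 bp. Where the summits lay far apart, the ranks need not describe the same position. These 8 pairs were chosen for their change of rank, and without a second library of either genotype the spread of such ranks is unknown.

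By gene, KO marked more ends than WT. A gene-end summit was present at 10009 of 19970 protein-coding genes in WT and 10705 in KO, and at 9305 in both. In KO and not WT it was present at 1400 (7.01%), and in WT and not KO at 704 (3.53%). Of these genes, 1019 and 420 had no summit of the other genotype within 5 kb. At equal length the genes marked in KO alone and in WT alone numbered 1160 and 959. With a q of 1e-05 or less required of the summit and any score accepted in the other genotype, 734 genes were marked in KO alone and 345 in WT alone. The excess of KO genes kept its direction in each of these counts.

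Gene groups with housekeeping roles were marked at most of their members in both genotypes. Cytosolic ribosomal protein genes were marked at 82 of 85 in WT and 81 in KO, against 10009 and 10705 of all 19970 protein-coding genes. Their paired summits lay 24 bp apart at the median, against 61 bp over all gene-end pairs and 39 bp over those of the highest rank group. Their median ranks at equal length were 61 in WT and 63 in KO, and the part of rank in the short distance was not tested. RPL35 and RPL13 led the cytosolic ribosomal genes, RPL23A was marked in KO alone, and RPL3L and RPS27A in WT alone. Proteasome genes, led by PSMD3 and PSMD12, were marked at 29 of 31 in WT and 27 in KO, with PSMC4 in KO alone and PSMA2, PSMD4 and PSMD8 in WT alone. Aminoacyl-tRNA synthetase genes, among them YARS2 (ranks 2135 and 595), stood at 31 and 32 of 37. CARS2, SARS2 and TARS1 were marked in KO alone, and PARS2 and WARS2 in WT alone. The first 3 each had a WT summit within 5 kb, and the last 2 had no KO summit that close. Mitochondrial ribosomal protein genes, led by MRPL48 and MRPS34, stood at 61 and 66 of 77, with 9 in KO alone and 4 in WT alone. In the first 3 of these groups the counts of the genotypes differed by at most 2.

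Among groups tied to WDR5 and to the cell cycle, more members were marked in KO than in WT, as over all protein-coding genes (10705 against 10009, with 7.01% in KO alone and 3.53% in WT alone). The COMPASS, G1/S and mitotic counts, like the mitochondrial ribosomal ones above, differed by 3 to 5 genes, and the histone counts differed by more. Genes of COMPASS subunits and WDR5 partners were marked at 21 of 28 in WT and 26 in KO, led by DPY30 (ranks 122 and 123) and SETD1A, an H3K4 methyltransferase (273 and 674). CXXC1, HCFC1, MCRS1, MEN1 and RBBP5 were marked in KO alone, and no member was marked in WT alone. Of these 5, 3 had no WT summit within 5 kb. G1/S and DNA replication genes, led by E2F3 and E2F2, stood at 36 and 39 of 41, with 4 in KO alone, among them ORC4 and ORC5 of the origin recognition complex, and POLA1, a subunit of DNA polymerase alpha, in WT alone. Mitotic spindle and kinetochore genes, led by KIF2A and KIF23, stood at 34 and 37 of 50. AURKA, AURKB, BUB1, KIF2C, SPC25 and TPX2 were marked in KO alone, and CCNB2, PTTG1 and STIL in WT alone. Replication-dependent histone genes, active during S phase, stood at 25 and 37 of 69, led by H3C13 and H2AC25, with 13 in KO alone and H2BC5 in WT alone. Neighbouring histone genes can share a summit, as H2AC13 and H2BC13 did at KO rank 9034. All 13 histone genes marked in KO alone but H2AC18 and H4C15 lie on chromosome 6. On that chromosome the window from 20 to 40 Mb held 148 gene-end summits in WT and 198 in KO, and 95 and 157 other summits. Whether the histone counts follow the counts of this region was not tested. Among the genes marked in KO alone, H1-5 (rank 18063), H4C2 (20043), BUB1 (19187) and POLD1 (17821) ranked below the length of the WT list. These counts have no test, and the lists were chosen with earlier results of these data known.

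HOX genes and genes silent in kidney lines had nearly the same counts in both genotypes. The totals of ZNF genes differed about as those of all genes did, but more ZNF genes were marked in a single genotype. HOX genes, which set position along the body axis, were marked at 30 of 39 in WT and 31 in KO, led by HOXB2 and HOXA10. HOXB13, HOXD3 and HOXD4 were marked in KO alone, and HOXB8 and HOXD11 in WT alone, although HOXD3 and HOXD4 shared 1 summit. Of the 3 in KO alone, 1 had no WT summit within 5 kb, and both in WT alone had a KO summit within 5 kb. ZNF genes, which encode zinc finger proteins, stood at 266 and 285 of 509, led by ZNF326 and ZNF783. Of the 509, 54 were marked in KO alone and 35 in WT alone. Both are larger shares than over all protein-coding genes, where they were 7.01% and 3.53%. Of 43 genes silent in kidney lines, 3 were marked in each genotype, with APOA1 and CD8A in both. Of 390 olfactory receptor genes 1 was marked in KO (OR10S1) and 1 in WT (OR2V2). The silent lists were thus almost unmarked in both genotypes, and the longer KO list added no gene to their totals.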

How the data were processed

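WDR5 ChIP-seq summits of 1 WT and 1 EMBOW KO library were used. The submitters' processing notes name MACS2 2.2.7.1, deepTools 3.5.1, Bowtie2 2.4.5 and the build hg38. The input behind each call, and any pooling of reads, are not given in the sources used. The score in the deposited lists was read as −log10 q, since its lowest values, 1.31 in WT and 1.30 in KO, lie at a q of 0.05. Scores were used only to rank, describe and filter within a list, with ties in file order. Read depth is unknown.

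Summits were paired by distance (500 bp) and placed by RefSeq genes of GRCh38.p14 (19970 protein-coding genes), whose strand came from 15811 genes with listed starts. Shares have exact Clopper-Pearson 95% intervals, and ratios of counts an interval from the binomial share of KO. No p-values were computed, since each genotype is 1 library. Genes were named by a rule: the 3 highest-ranked summits per place and class, the 4 largest rises and 4 largest falls of rank, the 2 highest members of each of 12 gene lists, and the 3 highest pairs on the same base and over 250 bp apart. Some genes chosen this way are not reported here. The members and lists were chosen with earlier results of these data known. Pairing and placing were tested on simulated data. Software was pandas 2.3.3, numpy 2.4.6 and scipy 1.17.1 under Python 3.11.15, with figures by matplotlib 3.10.9.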

Additional observations from a re-analysis of the deposited data

How the results depend on the processing

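No paired analysis was possible because each genotype is 1 library. Of 64 alternatives over 15 results, 37 stayed within the stated margin, 25 moved beyond it and 2 ratios crossed to the other side of 1; the margin was 1.5 times for a count and the main value's 95% interval for a ratio or distance. KO-only summits, 8503 in the report, numbered 13344 with a partner distance of 100 bp and 4225 with 5000 bp, and 4536 with both lists held to a q of 1e-05, 2654 with that q against the whole other list and 5655 at equal length without tied scores, which was tried after seeing the data. WT-only summits, 5062 in the report, numbered 9946 at 100 bp, 3213 at 1000 bp, 1965 at 5000 bp, 2660 with the stricter q in both lists and 1624 with it against the whole other list.

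A gene-end window of 500 bp gave 1942 KO-only and 1243 WT-only gene-end summits, against 2927 and 1946, and 1164 genes marked in WT and not KO, against 704. Placing by all genes of the table, noncoding ones included, left 1557 KO-only and 877 WT-only distal summits, against 2408 and 1345. Equal length left 2042 KO-only summits inside genes, against 3168, and 1422 distal ones. It took the KO to WT ratio below 1 at gene ends (0.996) and at distal positions (0.987), with intervals that include 1, and to 1.02 inside genes, and a q of 1e-05 or less moved it to 1.13, 1.28 and 1.27. The ratio over 2 and up to 5 kb downstream of a start, 1.69 in the report, was 1.21 at equal length and, for genes with 1 listed start, 1.68 and 1.23. The median distance from a KO summit to its WT partner, 66 bp, was 49 bp with partners within 250 bp and 90 bp within 1 kb. The KO list at equal length ends within a score that 350 summits share.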

Other observations

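The KO to WT ratio of summit number was also taken along the chromosomes. In the 147 windows of 20 Mb with at least 40 WT summits, its median was 1.19 and 21 windows lay below 1. The lowest was 0.630 (0.446 to 0.885), on chromosome 1 from 180 to 200 Mb, with 92 summits in WT and 58 in KO, and it was 0.565 at equal length. The highest was 1.67 (1.15 to 2.44), on chromosome 4 from 120 to 140 Mb, with 48 and 80, and it was 1.25 at equal length. The neighbouring window from 140 to 160 Mb, with 58 and 96, had a ratio of 1.66 (1.18 to 2.33). The intervals of both chromosome 4 windows include the ratio of the whole lists, 1.19. The interval lay above that ratio in 2 windows, chromosome 6 from 20 to 40 Mb (243 and 355 summits, 1.46, 1.24 to 1.73) and chromosome 12 from 120 to 140 Mb (135 and 203, 1.5, 1.20 to 1.88), and below it in 6. Copy number in these cells was not measured here.

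Summits at most 5 kb from the next were joined into clusters. WT had 12604 clusters with 1.40 summits each on average, and KO 14481 with 1.45. At equal length KO had 12855 clusters with 1.37, and 47.0% of its summits lay in clusters of 2 or more, against 49.5% in WT. KO summits were thus slightly more scattered than WT summits at the same list length.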
